A study of Mus musculus with 9 samples.

Results

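The miR-23/27/24 miRNAs are made from a pair of paralogous clusters, and the 3p guide arms of both clusters were followed in liver exosomes. The members were 5 entries chosen by name from the 722 of the small RNA count table: mmu-miR-23a-3p (436 to 2564 counts in a library), mmu-miR-27a-3p (471 to 2771), mmu-miR-23b-3p (663 to 3341), mmu-miR-27b-3p (2790 to 15502) and mmu-miR-24-3p (1183 to 6880), written without the species prefix from here on. All 5 were counted in each of the 9 libraries and all 5 passed the filter on low counts. Exosomes, small vesicles released by cells, were collected by differential centrifugation from cut liver tissue kept in culture with collagenase, per the study's methods. The library titles name hepatic exosomes, while other label text describes RNA extracted from tissue. The libraries fell into 3 groups of 3. Mice of the flox chow group carried loxP sites in Hsp90ab1 (the gene of Hsp90β) without Cre and ate chow, those of the flox HFFC group had the same genotype and ate HFFC (fat, fructose and cholesterol in high amounts), and those of the KO HFFC group had lost Hsp90β in hepatocytes and ate the HFFC diet. The floxed allele was made with CRISPR-Cas9 and is common to all groups. The knockout used Albumin-Cre to delete the gene in hepatocytes, and the state of the gene in other liver cells was not tested here. The labels of these libraries do not state strain, sex, age or time on diet, nor whether the mice received the adenovirus injected into floxed and knockout mice elsewhere in the study. Hsp90ab1 mRNA is not part of a miRNA table, so the knockout could not be checked here.

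A miRNA represses mRNAs that pair with its seed, bases 2 to 8 of the mature strand. The cluster on one chromosome yields miR-23a, miR-27a and miR-24, the paralogous cluster yields miR-23b, miR-27b and again miR-24, and each trio is cut from a shared primary transcript. miR-27 is known as a regulator of lipid metabolism and of adipocyte formation. The miR-23b cluster is known in mouse fetal liver for lowering Smad proteins of TGF-β signalling. Both clusters are also known from endothelial cells, where miR-23 and miR-27 take part in vessel growth.

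In GRCm38 (GENCODE M21) the hairpins of the first cluster lie on chromosome 8 within 404 bases: Mir23a at 84208518 to 84208592, Mir27a at 84208672 to 84208758 and Mir24-2 at 84208815 to 84208921, all on the plus strand. Mir23a and Mir27a overlap no other annotated gene. The last 2 bases of Mir24-2 reach into an exon of the lincRNA Gm26532. The second cluster lies on chromosome 13 within 792 bases: Mir23b at 63300484 to 63300557, Mir27b at 63300712 to 63300784 and Mir24-1 at 63301208 to 63301275, also on the plus strand. It sits inside the protein-coding gene 2010111I01Rik, with Mir23b in an intron and Mir27b and Mir24-1 inside exons of at least 1 annotated transcript. On the minus strand the same stretch is intronic in Fancc. RefSeq (GRCm38.p6) gave mature sequences for 4 of the 5 members. They are shown because the comparison of paralogues turns on them, with the seed in capitals and, in the miR-27 pair, also the single base that differs.
miR-27a-3p: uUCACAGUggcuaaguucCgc
miR-27b-3p: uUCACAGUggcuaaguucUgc
miR-23a-3p: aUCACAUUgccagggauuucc
miR-24-3p: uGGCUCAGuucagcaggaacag
The miR-27 paralogues have 21 bases each and differ only by C19U, counted from the 5′ end with the base of miR-27a-3p first. Their seed is therefore the same, and a read that ends before this base fits either of them. The sources used here do not say how such reads were assigned. The miR-24-3p sequence is the same from chromosome 8 and chromosome 13, so its count cannot be split by cluster. Among 1679 mature mouse miRNAs in RefSeq, no entry outside the miR-27 pair carries the miR-27 seed. Only 498 of the 722 counted entries have a RefSeq sequence, and the seeds of the others were not searched.

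The libraries held 218256 (flox chow replicate 3) to 681286 (flox chow replicate 2) miRNA counts. In these 2 libraries they were 0.849% and 2.61% of all tags of the library, the lowest and highest shares. Markers of hepatocytes (miR-122, miR-192 and miR-194 arms) made up 23.4% to 41.0% of these counts, and none of the 4 was at 0 in any group. The endothelial miR-126a arms made up 3.75% to 7.27%. Epithelial markers (the miR-200 family, miR-141, miR-429 and miR-204) stood apart in KO HFFC replicate 2 (0.395%) and replicate 3 (0.907%), against 0.0582% to 0.234% in the other libraries. Muscle markers reached 0.590% in flox chow replicate 3 and at most 0.0277% elsewhere. Values are given below with and without these libraries where they alter a result.

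The members made up 2.54% to 4.57% of miRNA counts in a library, with means of 3.37% ± 1.05 (SD, n = 3) in flox chow mice, 3.67% ± 0.563 in floxed mice on HFFC and 4.15% ± 0.365 in knockout mice. By summed counts miR-27b-3p ranked 13th of the 248 entries tested, miR-24-3p ranked 23rd, miR-27a-3p 33rd, miR-23b-3p 35th and miR-23a-3p 39th. In CPM (counts per 1000000, scaled by TMM, edgeR's library factors, with no length scaling since mature miRNAs are of like length), miR-27b-3p had means of 17576 ± 2922 in flox chow mice, 20044 ± 3341 in floxed mice on HFFC and 15457 ± 1673 in knockout mice. miR-24-3p had 8491 ± 1561, 7734 ± 1439 and 10622 ± 1403 CPM in the same order. The other 3 members lay lower and close together. miR-27a-3p had 3122 ± 531, 4139 ± 711 and 4271 ± 655 CPM, miR-23b-3p had 3527 ± 1116, 4018 ± 568 and 3857 ± 1096, and miR-23a-3p had 2381 ± 1129, 2854 ± 1147 and 3073 ± 1319. In each group miR-27b-3p was above miR-24-3p and miR-24-3p above the other 3 without overlap of libraries, while the libraries of these 3 overlapped one another in flox chow, flox HFFC and KO HFFC.

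**Figure D1:**
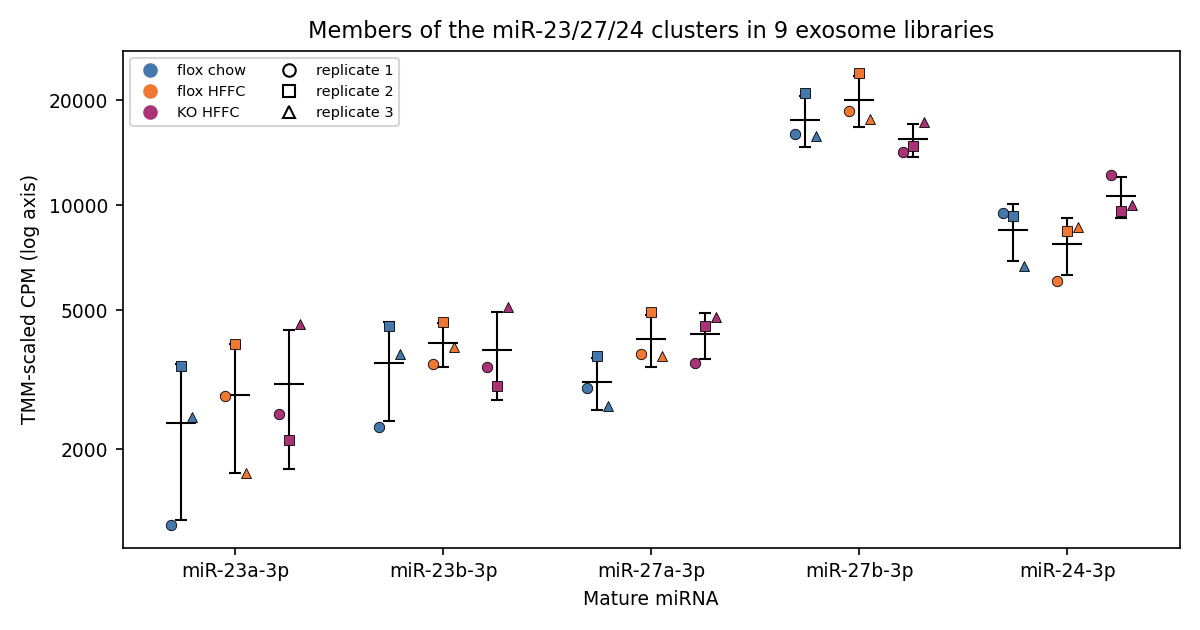
TMM-scaled CPM (log axis) of each member in every library, by group (colour) and replicate number (symbol); black bars are the mean and SD of 3 libraries. miR-27b-3p lies highest in every library, and the 3 KO HFFC libraries of miR-24-3p (9628 to 12227 CPM) lie above its 6 flox libraries. The highest of these 6, flox chow replicate 1, is close by at 9484 CPM. Neither knockout difference of miR-24-3p passed (edgeR adjusted p of 0.689 against flox HFFC and 0.693 against flox chow). The share of all entries higher than in all 6 flox libraries was not counted.

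The b paralogue exceeded the a paralogue in 9 of 9 libraries for both pairs. miR-27b-3p had 4.63 times the counts of miR-27a-3p (mean log2 ratio a to b −2.21 ± 0.290, SD, n = 9), and miR-23b-3p had 1.44 times those of miR-23a-3p (−0.53 ± 0.343). Each gave a two-sided exact sign-flip permutation p of 0.00391, the smallest that 9 libraries allow, and the same value adjusted over the 2 pairs. Any pair of entries that keeps the same order in all 9 libraries reaches this p. How many of all entry pairs do so was not counted, so the p is not specific to paralogues. The libraries of all 3 groups enter here, and sequence-dependent ligation can shift counts of single miRNAs, so the ratios are of counts and not of molecules. The spread differed between the pairs: among the 9 libraries the log2 ratio ran from −1.20 to −0.16 for miR-23 and from −2.57 to −1.71 for miR-27.

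The share of miR-27a-3p among all miR-27 counts differed by group without overlap. In flox chow it was 15.8% (95% Wilson interval 15.0% to 16.6%), 15.0% (14.5% to 15.6%) and 14.4% (13.3% to 15.7%) in replicates 1 to 3. In flox HFFC it was 16.8% (15.8% to 17.8%), 17.2% (16.6% to 17.8%) and 17.3% (16.6% to 18.2%). In KO HFFC it was 19.9% (19.0% to 20.8%), 23.4% (22.6% to 24.2%) and 21.6% (20.7% to 22.5%). All HFFC-fed floxed mice were thus above all chow-fed mice, and all knockout mice were above both. The group means were 15.1% ± 0.668, 17.1% ± 0.299 and 21.6% ± 1.74 (SD, n = 3). These intervals cover counting error only.

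As a ratio within a library, which needs no scaling, miR-27a-3p to miR-27b-3p was 1.16-fold higher in flox HFFC than in flox chow (log2 difference 0.22 ± 0.0465, SE), 1.33-fold higher in KO HFFC than in flox HFFC (0.41 ± 0.0872) and 1.55-fold higher in KO HFFC than in flox chow (0.63 ± 0.0957). Each gave 0.1 in the two-sided exact permutation test, which cannot go lower with 3 libraries a group, and 0.5 once adjusted over 15 tests (5 ratios, 3 comparisons), so no pairwise difference passed. The order of all 3 groups is given as a description only: a test of it was run after the order had been seen, is fixed by that order and is not used. Among all 30628 pairs of tested entries, 8.26%, 14.1% and 16.6% had ratios that did not overlap in these 3 comparisons. In 0.300% the groups stood in this order, rising or falling, without any overlap. Among the 780 pairs of the 40 entries with at least 400 counts in every library it was 0.385%, or 3 pairs. The others of these 3 pairs were miR-27a-3p with let-7a-5p and miR-30a-5p with miR-378a-3p. Other orders of the groups were not counted, so these shares do not give how often any order without overlap arises.

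Leaving out any single library kept the miR-27 ratio difference between 0.18 and 0.26 for the diet, 0.34 and 0.49 for the knockout on HFFC, and 0.56 and 0.71 for the knockout against chow. Without KO HFFC replicates 2 and 3, whose epithelial markers were high, replicate 1 alone stood 0.27 above the flox HFFC mean and 0.48 above the flox chow mean, a smaller distance, and its log2 ratio of −2.01 remained above those of all 6 flox libraries. The part of the epithelial markers in this result was otherwise not tested. The mesenchymal list (miR-143, miR-145a, miR-199a and miR-214) made up 0.661% to 1.47% of the miRNA counts of chow libraries, 0.839% to 1.32% of those of HFFC-fed floxed mice and 1.17% to 1.65% of those of knockout mice, and its part was not tested. In bulk exosomes, fewer vesicles of a cell type and less of a miRNA per vesicle cannot be told apart.

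**Figure D2:**
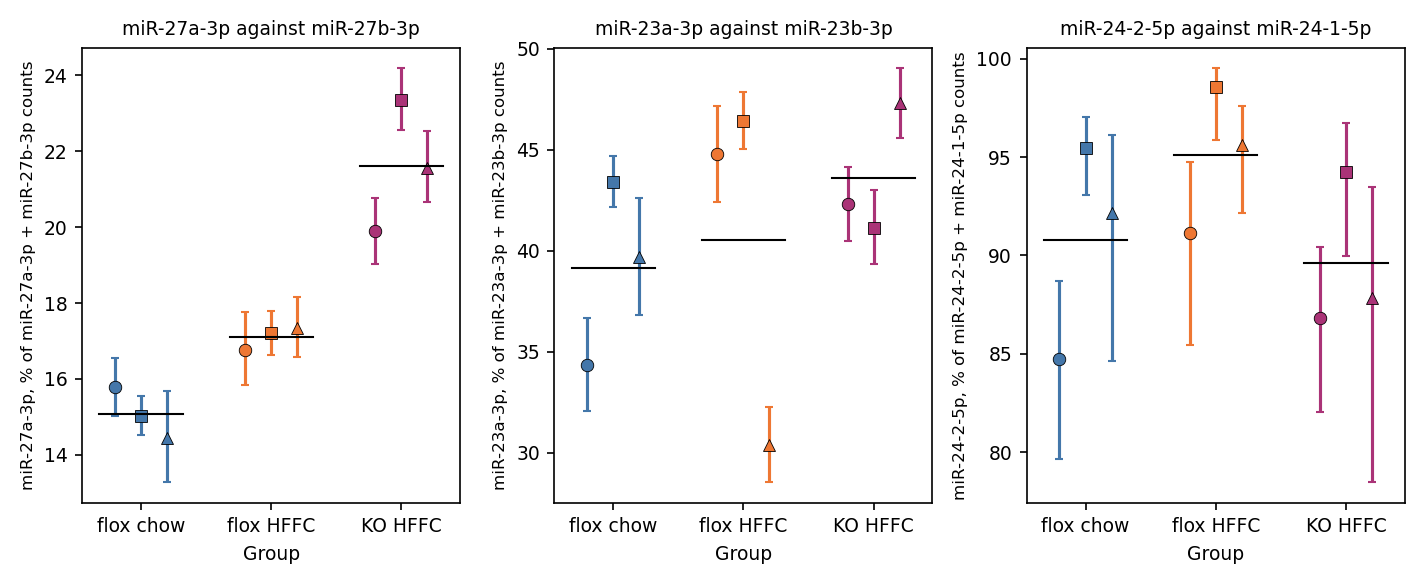
Percent of counts taken by miR-27a-3p in the miR-27 pair, by miR-23a-3p in the miR-23 pair and by miR-24-2-5p among the 5p arms of miR-24, for each library (symbol: replicate number) with 95% Wilson intervals; black lines are group means and the axes do not start at 0. The miR-27a-3p shares of the 3 groups (14.4% to 15.8%, 16.8% to 17.3% and 19.9% to 23.4%) do not overlap, while those of miR-23a-3p do.

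The miR-23 pair of the same clusters showed no such order. miR-23a-3p took 34.3%, 43.4% and 39.7% of miR-23 counts in flox chow mice, 44.8%, 46.4% and 30.4% in floxed mice on HFFC and 42.3%, 41.1% and 47.3% in knockout mice, so all groups overlapped. The log2 ratio of miR-23a-3p to miR-23b-3p differed by 0.07 ± 0.354 with the diet (exact permutation p = 0.8, adjusted 0.964), by 0.19 ± 0.334 with the knockout on HFFC (0.8, 0.964) and by 0.27 ± 0.195 between the knockout and chow (0.3, 0.563). The errors are wide, and whether the miR-23 and miR-27 ratios differed from each other was not tested. The diet value rests on single libraries: dropping flox chow replicate 1 gave −0.07, and dropping replicate 1 or 2 of flox HFFC gave −0.06 or −0.11. The knockout value on HFFC was −0.12 without flox HFFC replicate 3.

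Ratios between neighbours of 1 cluster overlapped between all groups. The log2 ratio of miR-23a-3p to miR-27a-3p ran from −1.31 to −0.10 in flox chow mice, from −1.11 to −0.31 in floxed mice on HFFC and from −1.09 to −0.06 in knockout mice, with differences between groups of −0.10 to 0.06 (exact p from 0.6 to 1). That of miR-23b-3p to miR-27b-3p had means of −2.36 ± 0.379, −2.32 ± 0.129 and −2.03 ± 0.260, and exact p from 0.2 to 0.9. miR-24-3p relative to the sum of the other 4 members was at −1.65 ± 0.347 in flox chow mice, −2.01 ± 0.324 in floxed mice on HFFC and −1.32 ± 0.357 in knockout mice. The knockout on HFFC was 0.69 ± 0.278 above flox HFFC on this scale (exact p = 0.2, adjusted 0.563) with overlapping libraries, and replicate 1 alone stood 1.05 above flox HFFC. Of the 15 ratio tests, the 3 without overlap were those of the miR-27 pair. They are 1 ratio in 3 comparisons that share libraries, and so not 3 separate results. Among all entry pairs, 8.26%, 14.1% and 16.6% did not overlap in these comparisons.

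**Figure D3:**
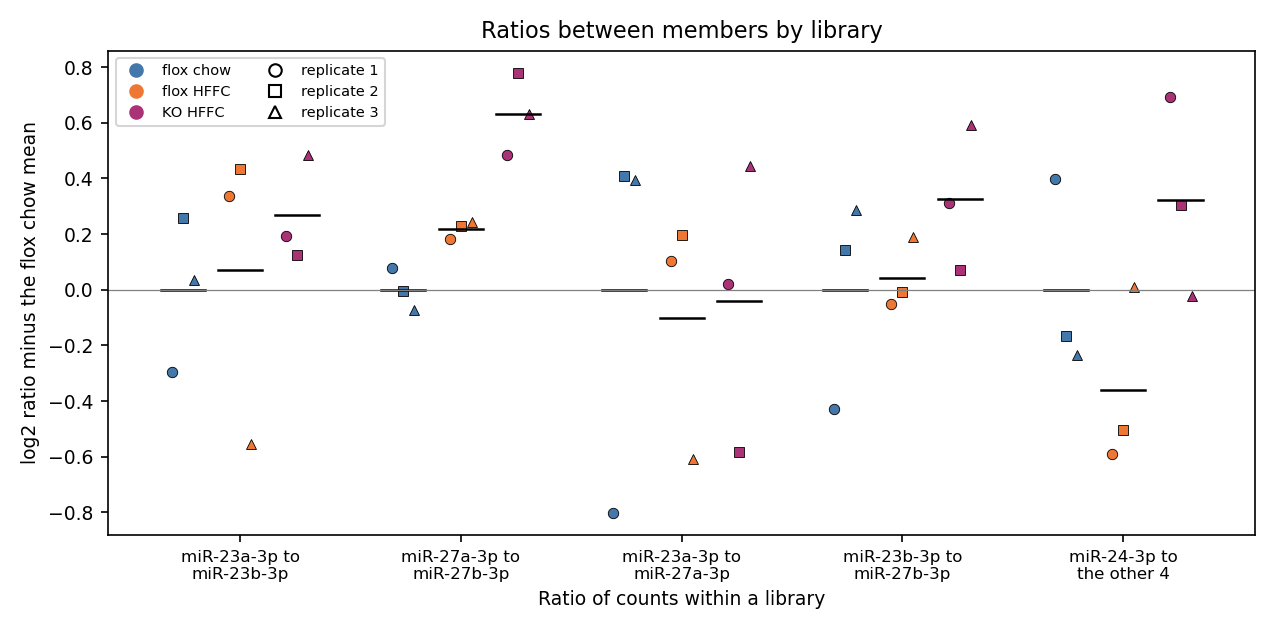
Log2 ratio of counts within each library minus the flox chow mean of that ratio, for the 5 ratios; colours are groups, symbols replicate numbers and black lines group means. The miR-27a-3p to miR-27b-3p means lie at 0.22 in flox HFFC and 0.63 in KO HFFC, and the 3 groups do not overlap, whereas the other 4 ratios overlap between groups.

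The first comparison asked whether the HFFC diet alters the members in floxed mice. None passed: edgeR's quasi-likelihood test called 0 of 5 members and 0% of the 248 entries at an adjusted p of 0.05, and 0 members (11 entries) had an unadjusted p under 0.05. DESeq2 (718 entries) and limma-voom (248 entries) also called 0 members and 0 entries. Fold changes are log2 with SE from the edgeR fit. Those of 4 members were above 0, with a member median of 0.19 against −0.02 over all entries. miR-27a-3p, the a copy of the lipid regulator, was measured at 2997, 3704 and 2664 CPM in flox chow and at 3749, 4960 and 3708 CPM in flox HFFC. Each HFFC library was above each chow library, though the lowest and highest of the groups nearly touched. Its log2 fold change was 0.41 ± 0.29 (95% interval −0.23 to 1.04, edgeR adjusted p = 0.985), and 4.84% of all entries were higher in every HFFC library. miR-27b-3p had 0.19 ± 0.23, miR-23b-3p 0.19 ± 0.34, miR-23a-3p 0.26 ± 0.46 and miR-24-3p −0.13 ± 0.26, all with overlapping groups, so 1 of 5 members did not overlap, beside 8.47% of entries in either direction (3.63% lower in every HFFC library). Without flox chow replicate 1, which was lowest for both miR-23 members, miR-23a-3p was at −0.13 and miR-23b-3p at −0.12. Dropping flox HFFC replicate 2 took miR-27a-3p to 0.24, miR-27b-3p to 0.0273 and miR-23a-3p to −0.09. miR-27b-3p was between 0.0519 and 0.31 without flox chow replicate 1 or 2 and at 0.12 without KO HFFC replicate 1. miR-24-3p was between −0.32 and −0.21 without flox chow replicate 3 or flox HFFC replicate 2 or 3, and dropping flox HFFC replicate 1 took miR-24-3p to 0.03.

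Knockout and floxed mice, both on HFFC, were compared next. edgeR called 0 of 5 members and 0% of 248 entries, with 0 members and 20 entries at an unadjusted p under 0.05. DESeq2, which kept more entries, called 0 members and 5 of 718 entries, and limma-voom called 0 of either. miR-24-3p was measured at 6078, 8443 and 8682 CPM in flox HFFC and at 12227, 9628 and 10010 CPM in KO HFFC. All knockout libraries were above all flox HFFC libraries. Its log2 fold change was 0.46 ± 0.26 (95% interval −0.11 to 1.03, edgeR adjusted p = 0.689), and 6.85% of all entries were higher in every knockout library. miR-27b-3p had a fold change of opposite sign. It was at 18602, 23864 and 17667 CPM in flox HFFC and at 14225, 14785 and 17361 CPM in KO HFFC, lower in every knockout library, as were 7.26% of entries (14.1% did not overlap in either direction). Its log2 fold change was −0.37 ± 0.23 (−0.88 to 0.13, edgeR adjusted p = 0.689). miR-27a-3p was at 0.05 ± 0.29. Neither change passed, and how the ratio difference divides between the paralogues depends on the filter: with at least 10 counts in every library miR-27a-3p was at 0.26 and miR-27b-3p at −0.16. The flox HFFC libraries are shared by both comparisons. miR-23a-3p had 0.11 ± 0.46 and miR-23b-3p −0.06 ± 0.34. These 2 values and that of miR-27a-3p changed sign when single libraries were left out: miR-23a-3p was at −0.32 without KO HFFC replicate 3 and −0.15 without flox HFFC replicate 3, miR-23b-3p at 0.06 without KO HFFC replicate 2, and miR-27a-3p between −0.06 and −0.02 without flox HFFC replicate 1 or 3 or KO HFFC replicate 2 or 3. miR-24-3p was at 0.30 without flox HFFC replicate 1 or without KO HFFC replicate 1, and at 0.72 without KO HFFC replicates 2 and 3, the libraries of high epithelial markers.

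Knockout mice on HFFC were also set against floxed mice on chow, where diet and genotype differ together and cannot be told apart. edgeR called 0 of 5 members and 0% of 248 entries, with 0 members and 32 entries at an unadjusted p under 0.05. DESeq2 called 0 members and 6 of 718 entries, and limma-voom called 0 of either. miR-24-3p was at 9484, 9297 and 6691 CPM in flox chow, below the 3 knockout libraries, as 8.06% of entries were; 9.68% were lower in every knockout library and 17.7% did not overlap in either direction. Its log2 fold change was 0.32 ± 0.26 (−0.25 to 0.89, edgeR adjusted p = 0.693), 0.10 without KO HFFC replicate 1, 0.15 without flox chow replicate 3 and 0.56 without KO HFFC replicates 2 and 3. miR-27a-3p had 0.45 ± 0.29 (−0.19 to 1.09, adjusted p = 0.612) with overlapping groups, since KO HFFC replicate 1 (3531 CPM) lay below flox chow replicate 2, and was at 0.22 without KO HFFC replicates 2 and 3. miR-23a-3p had 0.37 ± 0.46, miR-23b-3p 0.13 ± 0.34 and miR-27b-3p −0.19 ± 0.23. Both miR-23 members changed sign without flox chow replicate 1 (−0.06 and −0.22) and without KO HFFC replicate 3 (−0.09 and −0.18).

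**Figure D4:**
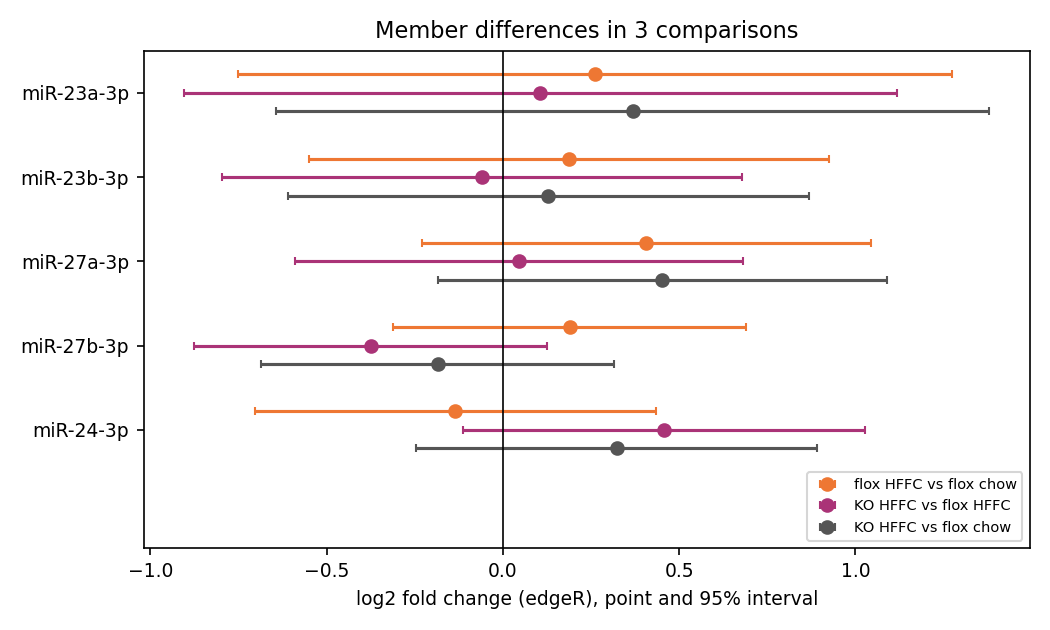
Log2 fold changes (points) and 95% intervals (bars) from the edgeR fit for the 5 members in the 3 comparisons. All 15 intervals include 0; the highest point is 0.46 for miR-24-3p in KO HFFC against flox HFFC and the lowest is −0.37 for miR-27b-3p in the same comparison.

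The other arms of the same hairpins were far rarer, with the exception of miR-24. Summed over 9 libraries, miR-23a-3p had 11073 counts and miR-23a-5p had 3, and miR-23b-3p had 15098 against 2 for miR-23b-5p. miR-27b-3p had 71380 counts against 41 for miR-27b-5p. The 3p arm thus held 99.6% or more of counts at each of the miR-23 and miR-27 hairpins. At miR-24 it held 95.1%, and the 5p arms, which unlike the 3p arm differ between the clusters, are shown because they mark the locus. Capitals again mark the seed, which these arms share.
miR-24-2-5p: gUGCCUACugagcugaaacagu
miR-24-1-5p: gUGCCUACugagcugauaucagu
The chromosome 8 arm miR-24-2-5p had 65 to 421 counts in a library and the chromosome 13 arm miR-24-1-5p had 3 to 37. The share of miR-24-2-5p was 84.7%, 95.5% and 92.1% in flox chow mice, 91.2%, 98.6% and 95.6% in floxed mice on HFFC and 86.8%, 94.2% and 87.8% in knockout mice. For the 5p arms of miR-24 the chromosome 8 copy was therefore ahead in every library, whereas in both 3p pairs the chromosome 13 copy was. This contrast is of counts, and the 5p arms differ in sequence and length (22 and 23 bases). Which cluster is expressed more was not tested. edgeR gave miR-24-2-5p log2 fold changes of −0.07 ± 0.43 with the diet and −0.49 ± 0.43 with the knockout on HFFC, and miR-24-1-5p −0.96 ± 0.84 and 0.66 ± 0.84, with none passing (edgeR adjusted p of at least 0.830). Together the 5p arms made up 4.27%, 3.57% and 2.16% of miR-24 counts in the knockout libraries and 4.24% to 8.41% in the 6 flox libraries, of which only flox HFFC replicate 2 overlapped the knockout. This share was not among the 5 ratios, was not tested and was not set against other entries. Its lowest value (KO HFFC replicate 3) rests on 65 and 9 counts of the 5p arms. The miR-24-3p counts, higher in CPM in every knockout library, are part of its denominator. Antisense to miR-24, miR-3074-2-3p had 6 to 68 counts, and miR-3074-5p and miR-3074-1-3p had at most 3.

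miR-128-3p carries the core of the miR-27 seed shifted by 1 base and shares targets with miR-27.
miR-128-3p: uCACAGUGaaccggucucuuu
It had 9, 11 and 3 counts in flox chow, 0 in all flox HFFC libraries and 3, 7 and 4 in KO HFFC, too few to pass the filter. A count of 0 allows up to 3 counts in a library.

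Among 12 miRNAs known for lipid control outside the clusters, 10 were tested. None passed in any comparison, with 5 above and 5 below 0 on the diet (median 0.02, against −0.02 for all entries), and 2 above and 8 below 0 in the knockout on HFFC (median −0.26, against −0.03). Among 12 miRNAs known from blood vessels, 9 were tested and none passed. With the diet 4 were above and 5 below 0 (median −0.02), and with the knockout on HFFC 2 above and 7 below (median −0.40), the lowest of them miR-20a-5p (−1.16).

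Across the 9 libraries, miR-27b-3p varied least of the members (SD of log2 CPM 0.227) and miR-23a-3p most (0.568), against a median of 0.642 over all tested entries. The entries of most similar profile were taken among the tested entries other than the members, as those with the smallest root mean square difference of centred log2 CPM over the 9 libraries, as a description without a test. On this measure a profile without variation lies at a member's own SD, so a small distance need not mean a shared pattern. For miR-27b-3p (SD 0.227) the nearest entries were miR-451a (0.207) of red blood cells and miR-192-5p (0.230) of hepatocytes, the latter beyond that SD. For miR-27a-3p they were miR-143-3p (0.197) of mesenchymal cells and let-7d-5p (0.218). miR-24-3p lay closest to the endothelial miR-126a-3p (0.250) and miR-181d-5p (0.255), miR-23b-3p to miR-32-5p (0.248) and miR-30a-3p (0.251), and miR-23a-3p to miR-154-5p (0.417) and miR-203-3p (0.438). Between members, the closest pair was miR-23b-3p with miR-27b-3p of the chromosome 13 cluster (0.267), followed by miR-27a-3p with miR-27b-3p (0.274). Both distances exceeded the SD of miR-27b-3p. miR-23a-3p was nearer to its paralogue miR-23b-3p (0.322) than to its cluster neighbour miR-27a-3p (0.459). miR-24-3p lay at 0.343 from miR-27a-3p, its nearest member, and at 0.646 from miR-23a-3p, the widest distance between members. The distance of 0.343 exceeded the SD of miR-24-3p (0.287) and that of miR-27a-3p (0.280), so it shows no shared pattern.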

How the data were processed

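The authors matched known miRNAs to miRBase; Bowtie2 appears in the submitters' processing notes. The study's methods and the labels describe different library preparations (the labels alone mention molecular identifiers). The methods name RNA from exosomes, whereas the labels describe Trizol extraction of tissue RNA, although the library titles name hepatic exosomes. Which material gave the RNA could not be settled from these sources. Not given in the sources used here: whether identifiers were collapsed, how reads were counted and which genome build served. The authors deposited whole-number counts per mature miRNA and library (722 entries, 131 of them predicted) and RPM values, which equal the deposited count per 1000000 of a library total of 24857300 to 27587100 tags. Their group means were not used, and 0 columns were left unmapped.

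Counts were tested with edgeR 4.0.16 in R 4.3.3 (TMM, filterByExpr with a minimum of 10, robust quasi-likelihood F test, 9 libraries in 1 fit, no covariate), adjusted by Benjamini-Hochberg over 248 entries. SE is the log2 fold change over the root of F. CPM uses TMM-scaled totals of the tested entries. Ratios used log2 counts with a pseudocount of 0.5 and two-sided exact permutation tests (scipy 1.17.1). Wilson intervals are at 95%. DEGseq, used in the study, pools the libraries of a group; pooled counts were an alternative, as were DESeq2 1.42.0 and limma 3.58.1. The method was tested on simulated counts.

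The named miRNAs were the 5 members, the other arms of their hairpins, miR-128-3p, the 2 entries of nearest profile for each member and the members of the lists; let-7a-5p, miR-30a-5p and the pairs they form were named after their values were seen. Members and lists were chosen with earlier results of these data known. Each library was taken as a mouse, since the study counts mice as replicates; where this does not hold, p-values measure only the spread between libraries. All libraries of a group differed beyond sampling noise (chi-square over its degrees of freedom at least 60.6).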

Additional observations from a re-analysis of the deposited data

Results flagged for a closer look

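miR-27a-5p, the rarely counted partner arm of miR-27a-3p, was removed by the low-count filter and entered no comparison. It had 35 counts in KO HFFC replicate 3 and 20 in replicate 2, against at most 1 in each of the other 7 libraries, and was picked out because these values exceed those of the chow libraries. The same 2 libraries had the highest epithelial markers (0.907% and 0.395%), and the part of these in the counts was not tested. KO HFFC replicate 1, with 0 counts of miR-27a-5p, had a miR-27a-3p share of 19.9%.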

How the results depend on the processing

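No setting that keeps the spread between mice called a member. Pooled counts under Poisson sampling, which ignore that spread, called 5 members with the diet, 3 with the knockout on HFFC and 4 for the knockout against chow (148, 161 and 166 of 248 entries). The number of entries tested was 248 when scaled by all library tags, 722 without a filter and 718 with DESeq2. In this order the knockout on HFFC had 1, 7 and 5 calls, and the knockout against chow had 4, 10 and 6. Leaving out single libraries gave 0 to 5 calls in each knockout comparison, 5 of 281 entries without KO HFFC replicate 1.

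Small member values changed sign. In the knockout on HFFC, miR-23a-3p was at −0.00012 when scaled by all tags, −0.0568 on pooled counts and −0.0896 without KO HFFC replicates 2 and 3 (a setting chosen after seeing the data). miR-23b-3p was at 0.0217 without a filter and 0.16 with at least 10 counts in every library. miR-27a-3p was at −0.0048 in the fit of 6 libraries, −0.0156 on pooled counts and −0.16 without KO HFFC replicates 2 and 3. Against chow, miR-23b-3p was at −0.0204 when scaled by all tags and miR-27b-3p at 0.0428 with at least 10 counts in every library, a filter under which miR-27a-3p was at 0.68 and miR-24-3p at 0.54. Scaled by all tags, miR-27b-3p was at 0.0756 with the diet and −0.31 between the knockout and chow, and miR-24-3p was at −0.24 with the diet.

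Without KO HFFC replicates 2 and 3, the miR-27a-3p to miR-27b-3p difference was 0.27 on HFFC and 0.48 against chow. miR-24-3p to the other 4 was then at 1.05 and 0.69, and miR-23a-3p to miR-27a-3p was at 0.0189 against chow. On summed counts the latter was at −0.0412 on HFFC.

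With the diet, ranges over single left-out libraries that span 0 were miR-23a-3p from −0.13 to 0.61, miR-23b-3p from −0.12 to 0.39, miR-24-3p from −0.32 to 0.0334, miR-23a-3p to miR-23b-3p (ratio) from −0.11 to 0.39, miR-23a-3p to miR-27a-3p (ratio) from −0.50 to 0.15 and miR-23b-3p to miR-27b-3p (ratio) from −0.17 to 0.19. With the knockout on HFFC, ranges over single left-out libraries that span 0 were miR-23a-3p from −0.32 to 0.35, miR-27a-3p from −0.0575 to 0.13, miR-23b-3p from −0.34 to 0.0605, miR-23a-3p to miR-23b-3p (ratio) from −0.12 to 0.38 and miR-23a-3p to miR-27a-3p (ratio) from −0.19 to 0.33. Between the knockout and chow, ranges over single left-out libraries that span 0 were miR-23a-3p from −0.0865 to 0.70, miR-23b-3p from −0.22 to 0.30 and miR-23a-3p to miR-27a-3p (ratio) from −0.44 to 0.23. All other member values and ratios kept their sign when 1 library was left out.

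The replicate number did not pair the libraries (correlations of same-numbered libraries from −0.13 to 0.36, with 2 of 9 libraries closest to their own number). With a replicate block edgeR called 0 entries in all 3 comparisons, and miR-24-3p in the knockout on HFFC was at 0.45. At 3 mice a group every member's 95% interval includes 0. These intervals are not adjusted for the number of entries tested, and differences inside them are not excluded.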
